A study of Mus musculus with 4 samples.

Results

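The nuclear genes of oxidative phosphorylation were followed across thymocyte stages in 2 mouse thymus libraries. They were chosen by name: a gene row was taken if its symbol began with Nduf, Uqcr or Atp5, was one of Sdha to Sdhd, or began with Cox followed by a digit from 4 to 8, with pseudogene (-ps) and Rik rows left out. Of 31053 gene rows, 93 fitted these names, and 88 had the required 20 UMIs (unique molecules) over both libraries. The 5 others, Cox7b2, Cox8b, Cox8c, Ndufa4l2 and Atp5o, had no UMI at all, and the member with the fewest, Cox4i2, had 26 UMIs in autonomy and 8 in turnover. The 88 members comprised 44 complex I genes (7 core subunits, 29 supernumerary subunits and 8 Ndufaf assembly factors), 4 of complex II, 8 of complex III, 16 of complex IV, where Ndufa4 was counted, and 16 named for complex V.

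Oxidative phosphorylation runs in the inner mitochondrial membrane. Complexes I and II pass electrons from NADH and succinate to ubiquinone, complex III passes them to cytochrome c, complex IV passes them to oxygen, and complex V, the ATP synthase, uses the resulting proton gradient to make ATP. Nuclear genes encode most subunits and all of complex II, whereas mitochondrial DNA encodes central subunits of complexes I, III, IV and V, so the assembled complexes need transcripts from both genomes. In the thymus, precursors proliferate after rearranging their TCR beta chain, pass through an immature single positive (ISP) stage and become small non-dividing double positive (DP) cells.

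Wild-type mouse thymi had been grafted and were taken after 28 days in both conditions. In autonomy the thymus keeps up T cell production from its own precursors, and in turnover it is repopulated by incoming ones. The labels name the sorted cells as DN3-DN4, ISP and double positive thymocytes, and they describe neither the hosts nor the number of animals. Each condition had 1 droplet 5′ gene expression library, which leaves variation among animals unmeasured. No test was made, and all intervals below are 95% and cover counting error only.

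Autonomy held 4587 barcodes with 16388810 UMIs, and turnover held 4374 with 20163286. With at least 1000 UMIs, 4414 autonomy barcodes (median 2430.5 UMIs) and 4227 turnover barcodes (median 2112) were kept, and 29 barcode sequences occurred in both. The autonomy library was mixed: 1806 of its barcodes carried Xist and 959 a Y-linked transcript, against 0 and 2459 in turnover. Of barcodes with a productive TCR beta chain, 1454 of 3207 in autonomy and 0 of 3726 in turnover carried a chain seen in 20 or more barcodes, so intervals, which treat barcodes as independent, may be too narrow above all for autonomy. Clusters, made without the member genes, were named by stage markers. Cycling ISP/DP-like clusters, with Mki67 and Top2a, held 261 autonomy and 693 turnover barcodes, and small resting DP-like clusters, with Rag1 and Cd8a, held 2396 and 2621. Post-selection-like clusters held 552 and 705 barcodes, mature single positive-like clusters 154 and 21, and an Il2ra-high cluster of early cells 9 and 127. Clusters with the Notch target Dtx1 among their 10 leading genes (Dtx1-led, 890 and 42) and a cluster with macrophage transcripts (152 and 18) were kept apart. The Dtx1-led clusters also met the Rag1 and Cd8a levels used to name small resting clusters. These shares of stages can be set by the sort, and no doublets were removed.

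Nuclear oxidative phosphorylation transcripts took their highest share of all UMIs in cycling cells of both libraries. In autonomy they made up 3.42% of UMIs in cycling ISP/DP-like barcodes (3.41 to 3.44) and 2.44% in small resting DP-like barcodes (2.43 to 2.45), a ratio of 1.40 (1.39 to 1.41). In turnover the shares were 3.70% in cycling (3.69 to 3.72) and 2.81% in small resting barcodes (2.80 to 2.83), a ratio of 1.32 (1.31 to 1.32). A cycling barcode carried on average 554 member UMIs in autonomy and 626 in turnover, and a small resting barcode carried 58.7 and 56.6, with median totals of 13910 and 15247 UMIs in cycling against 2255 and 1855 in small resting barcodes. All other groups had shares from 2.43% to 2.64% in autonomy and from 2.52% to 2.89% in turnover. With barcodes thinned to 1000 UMIs each, the ratio of cycling to small resting was 1.35 in autonomy and 1.29 in turnover.

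**Figure D1:**
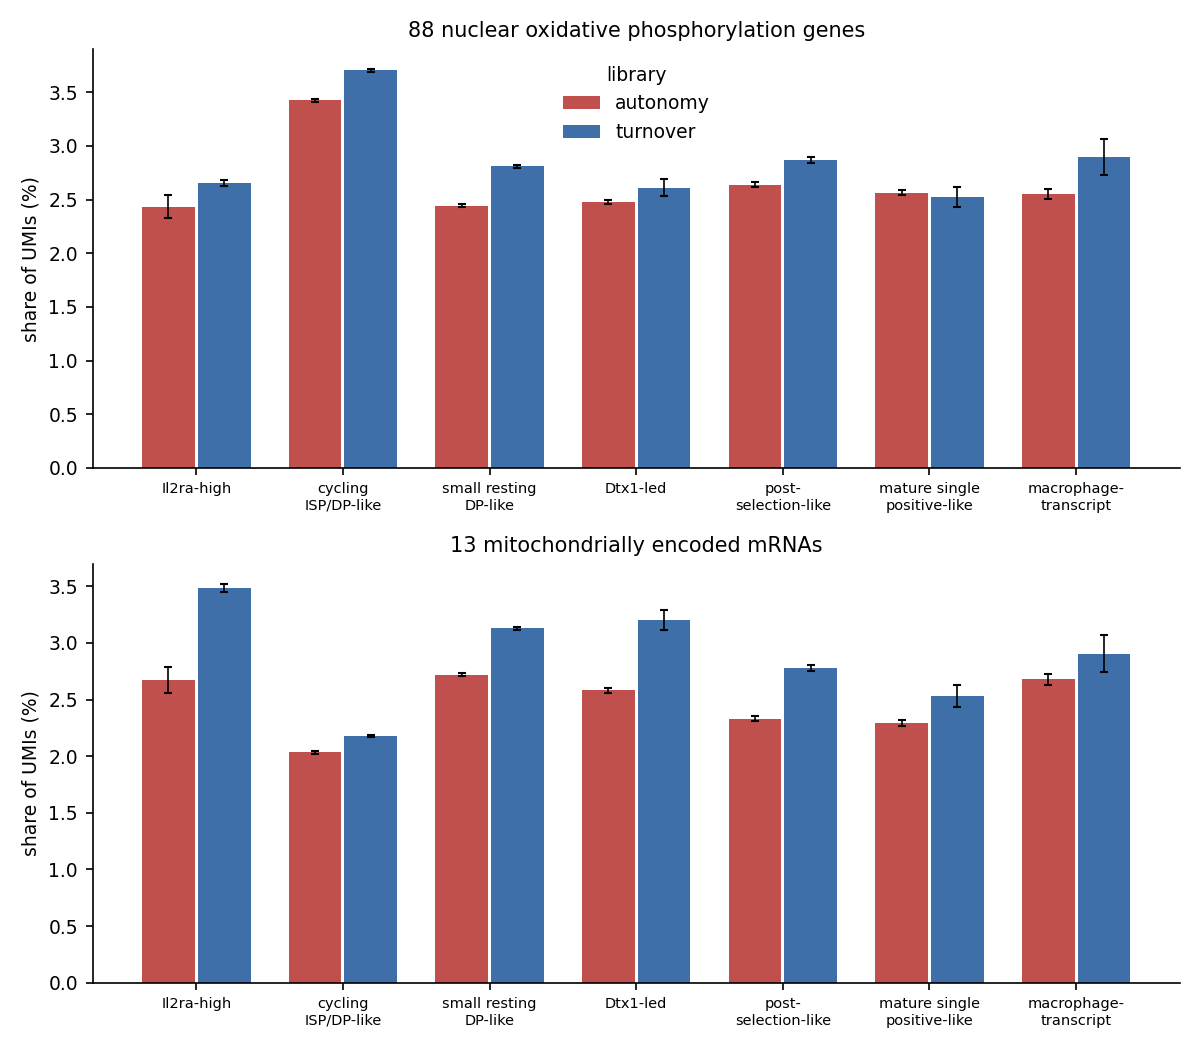
Bars give the share of all UMIs (percent, from 0) taken by the 88 nuclear oxidative phosphorylation genes (top) and by the 13 mitochondrially encoded mRNAs (bottom) in each cell group, autonomy left and turnover right, with exact 95% intervals for counting error. The nuclear genes are highest in cycling ISP/DP-like barcodes (3.42% and 3.70%), where the mitochondrially encoded mRNAs are lowest (2.04% and 2.18%).

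The higher share in cycling cells was spread over the members. In autonomy 33 of 84 members with at least 100 UMIs were at least 1.5-fold higher in cycling than in small resting barcodes, against 18.3% of all genes with that count, and in turnover 31 of 85 were, against 18.4% of all genes. In the other direction 3 members in autonomy and 5 in turnover were at least 1.5-fold lower, against 48.7% and 49.2% of all genes. The median member stood at 1.44 in autonomy and 1.35 in turnover, the median gene at 0.682 and 0.676, so every ratio here reads higher against the median gene than against the total. Of 84 members measured in both libraries, 65 were above 1 in both, against 27.9% of all genes measured in both, and 28 were at least 1.5-fold higher in both, against 15.8%. Cytosolic ribosomal protein genes moved in the same direction, with 19.2% of UMIs in cycling against 10.1% in small resting barcodes of autonomy, and 24.2% against 14.8% in turnover. Their part in the member ratios was not tested.

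The stage ratio of summed UMIs differed between complexes, in the same order at its upper end in both libraries. Complex V was 1.59-fold higher in cycling than in small resting barcodes in autonomy (1.57 to 1.61) and 1.51-fold in turnover (1.49 to 1.52). Complex IV followed with 1.45 (1.43 to 1.48) and 1.40 (1.38 to 1.41). The other groups lay lower. Supernumerary subunits of complex I gave 1.23 in autonomy and 1.14 in turnover, and complex III gave 1.26 and 1.15. The interval was 1.20 to 1.30 in autonomy and 1.09 to 1.16 in turnover for the complex I core, 1.14 to 1.33 and 1.18 to 1.33 for its assembly factors, and 1.19 to 1.32 and 1.15 to 1.24 for complex II. The intervals of complexes IV and V lay above those of the other groups in both libraries. Members with many UMIs weigh most in these sums, and the median member gave another order. It was highest for the assembly factors, at 1.74 in autonomy and 1.97 in turnover. Complex IV had medians of 1.57 and 1.49, and complex V, which was not above it, 1.51 and 1.49.

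The genes described next for their stage ratios were picked after their values had been seen, as the highest and lowest. In complex V the genes of the proton-carrying ring were highest. Atp5g1, Atp5g2 and Atp5g3 all encode the same mature subunit c and differ in their import peptides. Atp5g2 (chr15:102662868-102671047 in GRCm38, the build also called mm10) stood at 1021 CPM (UMIs per 1000000 UMIs of the cell group) in cycling and 302 CPM in small resting barcodes of autonomy, and at 1121 against 400 CPM in turnover. Its stage ratio was 3.38 (3.20 to 3.58) in autonomy and 2.80 (2.68 to 2.94) in turnover. Atp5g1 had 422 against 155 CPM in autonomy and 501 against 175 CPM in turnover, ratios of 2.72 and 2.85. Atp5g3 had 1565 against 782 CPM in autonomy and 1633 against 856 CPM in turnover, ratios of 2.0 and 1.91. All 3 genes were thus higher in cycling barcodes of both libraries. Of 16 complex V members all lay above 1 in autonomy, from 1.04 to 3.38, and 15 in turnover, whereas 68.4% of all genes lay below 1 in each library. The interval of the lowest in autonomy, Atp5s, includes 1 (0.705 to 1.54).

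Complex I assembly factors spread most widely. Ndufaf6, needed for an early assembly step, had 20.1 against 3.82 CPM in autonomy and 17.8 against 3.41 CPM in turnover, with only 22 and 18 UMIs in small resting barcodes. Its stage ratio was 5.27 (3.27 to 8.85) in autonomy and 5.20 (3.21 to 8.95) in turnover. Ndufaf2, a chaperone of late assembly, gave 3.05 and 2.46, and Ndufaf7, a methyltransferase, gave 2.88 and 2.32. Ndufaf4 gave 2.07 in autonomy and 3.23 in turnover. Ndufaf3, which binds Ndufaf4 in an early assembly intermediate, went the other way, with 48.8 CPM in cycling against 103 CPM in small resting barcodes of autonomy and 55.8 against 102 CPM in turnover, ratios of 0.474 (0.402 to 0.556) and 0.545 (0.486 to 0.612). Assembly partners therefore did not share a direction across stages.

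Among structural subunits, the membrane-arm subunit Ndufc2 (2.71 in autonomy and 2.12 in turnover), Ndufa12 (2.33 and 2.03), the acyl carrier protein Ndufab1 (2.09 and 2.02), and the complex IV subunits Cox5a (2.32 and 2.30) and Cox8a (1.96 and 2.14) had high stage ratios. Cox5a stood at 755 CPM in cycling and 326 CPM in small resting barcodes of autonomy, and at 728 against 317 CPM in turnover. The lowest subunits with 100 or more UMIs in each library were Ndufs4, an accessory subunit of the electron input module, at 0.608 and 0.515, and Cox7a2l, which joins complexes III and IV into supercomplexes, at 0.643 and 0.517. Cox7a2l had 193 CPM in cycling and 301 CPM in small resting barcodes of autonomy, and 214 against 414 CPM in turnover. Cox7a2, the paralog that sits in complex IV itself, had a ratio of 1.6 in autonomy and 1.59 in turnover, so the 2 paralogs lay on opposite sides of 1. Of 7 core subunits of complex I, 6 lay above 1 in autonomy and 4 in turnover, whereas 68.4% of all genes lay below 1 in each library. Ndufv1, which binds NADH, was the highest of them at 1.65 and 1.58.

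**Figure D2:**
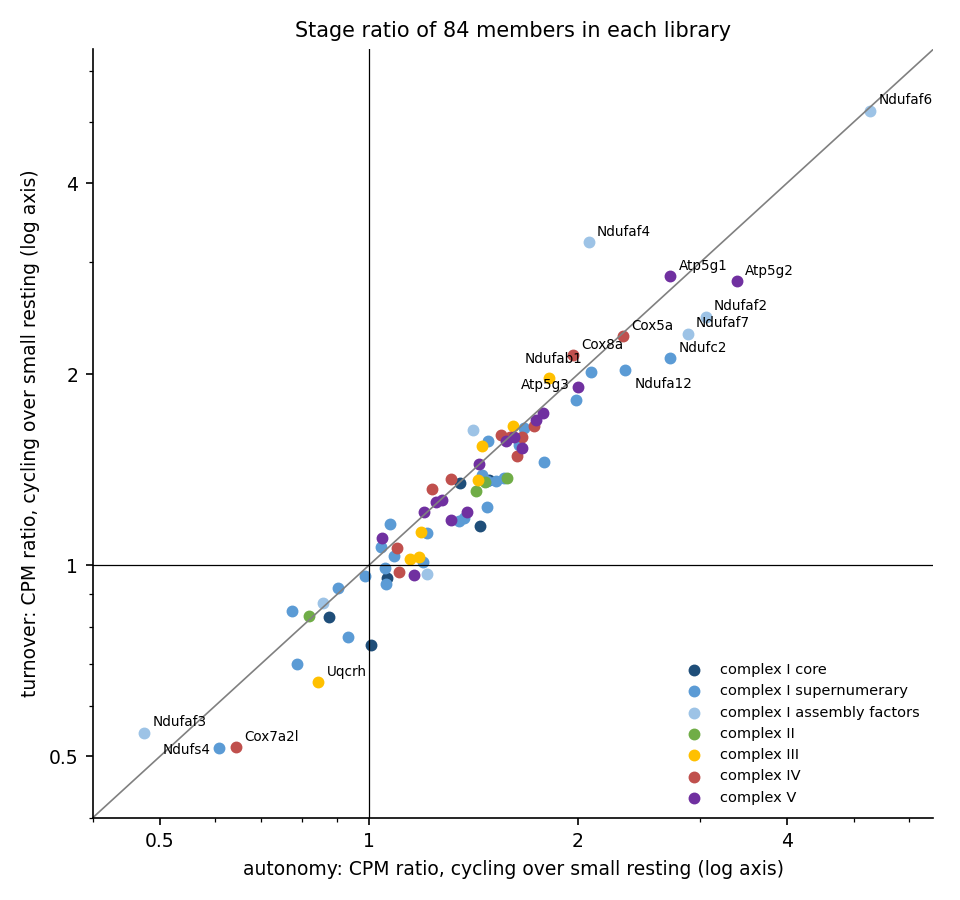
Each point is a member with at least 100 UMIs in both libraries (84 members), placed by its CPM ratio of cycling over small resting barcodes in autonomy (x, log axis) and in turnover (y, log axis) and coloured by complex, with the diagonal marking equal ratios. Most points lie above 1 on both axes (65 members), with Ndufaf6 highest and Ndufaf3, Ndufs4 and Cox7a2l lowest.

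Mitochondrially encoded mRNAs, as a share of all UMIs, ran opposite to the nuclear members. The 13 mRNAs made up 2.04% of UMIs in cycling and 2.72% in small resting barcodes of autonomy, a ratio of 0.749 (0.743 to 0.755), and 2.18% against 3.13% in turnover, a ratio of 0.697 (0.692 to 0.701). This direction depended on the scaling: with TMM factors, which centre the bulk of genes, the ratios were 1.05 in autonomy and 1.04 in turnover, and those of the nuclear members 1.96 in both. Exceptions were mt-Nd1, with stage ratios of 1.44 in autonomy and 1.53 in turnover, and mt-Nd5, with 1.34 and 1.17. In autonomy mt-Nd6 was at 1.12, with an interval that includes 1 (0.968 to 1.29), and in turnover at 0.801 (0.704 to 0.911). Nuclear member UMIs per mitochondrially encoded UMI were 1.68 in autonomy and 1.70 in turnover among cycling barcodes, and 0.898 and 0.899 among small resting barcodes. Within these stages the balance was nearly the same in both libraries. Among post-selection-like barcodes it was 1.13 and 1.03, and in the Il2ra-high cluster 0.910 (9 barcodes) and 0.762.

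Between the libraries, nuclear oxidative phosphorylation transcripts took a lower share in autonomy. Over all barcodes they were 2.74% of UMIs in autonomy and 3.33% in turnover, a ratio of 0.823 (0.820 to 0.826). Cycling barcodes, where the share was highest, were 261 of 4414 in autonomy and 693 of 4227 in turnover, and with the stages of autonomy weighted by their UMIs in turnover the ratio was 0.912. Within stages the share was still lower in autonomy, with a ratio of 0.868 (0.862 to 0.875) among small resting, 0.924 (0.919 to 0.930) among cycling and 0.920 (0.909 to 0.931) among post-selection-like barcodes. Among mature single positive-like barcodes, with 21 in turnover, it was 1.02 (0.977 to 1.06). Most small resting barcodes of turnover lay in clusters 3 and 5, whereas those of autonomy were spread over clusters 5, 3 and 4. The ratio was 0.836 in cluster 3, 0.843 in cluster 4 (25 turnover barcodes), 0.874 in cluster 5, 0.866 in cluster 2 and 0.923 in cluster 10, whose leading genes are interferon-induced. Each of the 3 cycling clusters gave a ratio from 0.901 to 0.939.

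The difference was also seen barcode by barcode. Among small resting barcodes the member share had a median of 2.41% in autonomy (5th to 95th percentile 1.73 to 3.13) and 2.78% in turnover (2.06 to 3.61), so the 2 distributions overlapped widely. Among cycling barcodes the medians were 3.42% (2.0 to 3.99) in autonomy and 3.68% (2.92 to 4.24) in turnover. Barcodes with a Y-linked and no Xist UMI gave a ratio of 0.872 among small resting and 0.922 among cycling barcodes. Without the barcodes of TCR beta chains seen 20 or more times it was 0.871 and 0.918.

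Few single members passed 1.5-fold, but most leaned the same way. Over all barcodes 76 of 85 members with at least 200 UMIs were below 1, where 30.7% of all genes with that count were. At least 1.5-fold lower were 5 members, against 6.5% of all genes, and none was at least 1.5-fold higher, against 31.3% of all genes. A ratio of 0.8 or less was found for 44 members, against 14.2% of all genes. Among small resting barcodes 69 of 84 members were below 1, against 38.1% of all genes. There 3 were 1.5-fold lower against 4.07% of all genes, none was higher against 21.6%, and 26 had a ratio of 0.8 or less against 13.4%. Among cycling barcodes 65 of 85 were below 1, against 33.2% of all genes. In this stage 1 was 1.5-fold lower against 2.96%, none was higher against 20.9%, and 5 had a ratio of 0.8 or less against 9.31%. Among post-selection-like barcodes 60 of 80 were below 1 against 43.3%, 3 were 1.5-fold lower against 4.27%, and none was higher against 17.8%. The share of members at least 1.5-fold lower was thus near that of all genes, while more of the members than of all genes lay below 1.

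The median gene lay above 1, at 1.22 over all barcodes (0.28 on the log2 scale), 1.10 among small resting (0.14) and 1.12 among cycling barcodes (0.17), whereas the median member lay at 0.798, 0.858 and 0.889. Relative to the median gene, 85 of 85, 78 of 84 and 80 of 85 members were lower. Genes with few UMIs weighed in this median: among genes with at least 2000 UMIs over all barcodes 38.9% were below 1. Of genes with at least 1000 UMIs in a stage, 46.8% were below 1 among small resting and 44.9% among cycling barcodes. Among post-selection-like barcodes 62.8% of such genes were, with a median of -0.109 on the log2 scale, close to the members at -0.144. TMM factors multiplied every ratio of autonomy over turnover by 0.816 over all, 0.903 among small resting and 0.876 among cycling barcodes, and with them 47 members over all barcodes, 9 among small resting and 2 among cycling barcodes were at least 1.5-fold lower, against 15.3%, 7.87% and 6.43% of all genes. Cytosolic ribosomal protein genes took 14.5% of UMIs in autonomy and 21.0% in turnover, a ratio of 0.688, and with these and mitochondrial genes left out of the total the member ratio was 0.757.

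**Figure D3:**
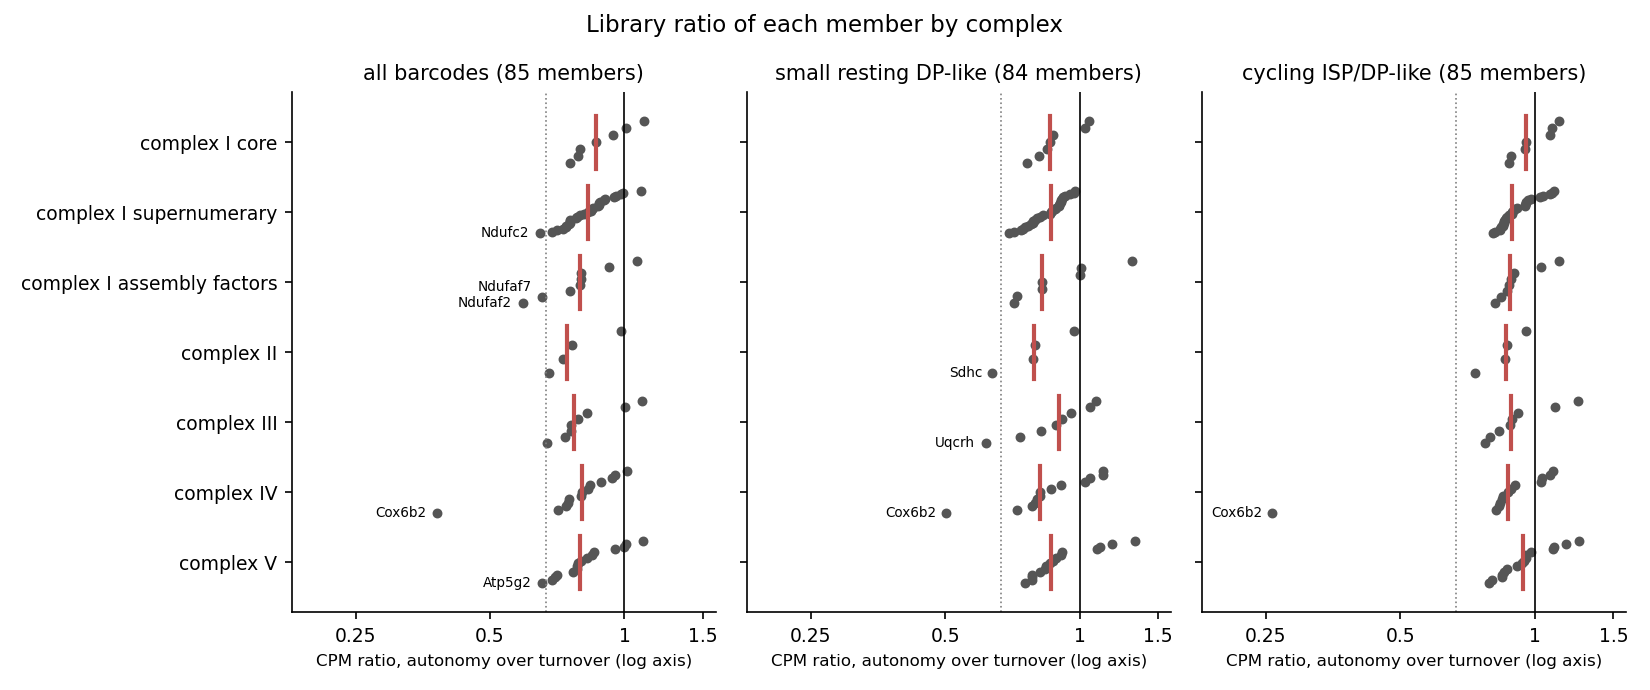
Each point is a member's CPM ratio of autonomy over turnover (log axis) over all, small resting DP-like and cycling ISP/DP-like barcodes, by complex, with the red line at the median of the complex, the solid line at 1 and the dotted line at a 1.5-fold lower value, where members are named. Most points lie left of 1 (76 of 85, 69 of 84 and 65 of 85), and Cox6b2 is the lowest in each panel, where members under the count minimum are not drawn.

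Complex I members showed the same lean over all barcodes. The summed ratio was 0.878 for core subunits (0.860 to 0.897), 0.838 for supernumerary subunits (0.832 to 0.844) and 0.841 for assembly factors (0.810 to 0.874), and 28 of 29 supernumerary members were below 1. Among small resting and cycling barcodes it was 0.848 and 0.912 for supernumerary subunits and 0.926 and 0.909 for assembly factors. Core subunits gave 0.879 among small resting barcodes. Among cycling barcodes they gave 0.979, with an interval that includes 1 (0.946 to 1.01), and 1.08 with barcodes thinned to 1000 UMIs. Of the most detected core subunits, the iron-sulfur protein Ndufv2 had 188 CPM in autonomy and 250 CPM in turnover over all barcodes, a ratio of 0.755 (0.722 to 0.790), and Ndufs7, which holds the last iron-sulfur cluster, had 136 and 171 CPM, a ratio of 0.797. Ndufs3, another core subunit, was the highest of the 85 members with 200 or more UMIs at 1.11 (1.05 to 1.17), with 155 CPM in autonomy and 140 CPM in turnover, and was 0.904 with TMM factors. Among supernumerary subunits Ndufc2 was lowest, with 217 CPM in autonomy and 336 CPM in turnover, a ratio of 0.646 (0.620 to 0.672), and Ndufa13, also known as Grim19, highest at 1.09 (0.887 with TMM factors). Within stages Ndufc2 gave 0.695 among small resting and 0.889 among cycling barcodes. Ndufa3 had 446 CPM in autonomy and 509 CPM in turnover, a ratio of 0.877.

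Assembly factors Ndufaf2 and Ndufaf7 were the lowest of their group over all barcodes. Ndufaf2 had 26.4 CPM in autonomy and 44.6 CPM in turnover, a ratio of 0.591 (0.526 to 0.664), and Ndufaf7 had 18.4 and 28.3 CPM, a ratio of 0.653 (0.566 to 0.752). Within stages both were closer to 1, at 0.714 and 0.723 among small resting and 0.885 and 0.899 among cycling barcodes. The most detected factors, Ndufaf3 and Ndufaf8, gave 1.07 (0.990 to 1.15) and 0.921 (0.847 to 1.0). Among post-selection-like barcodes Ndufaf1, which helps build the membrane arm, had 37 UMIs in autonomy and 66 in turnover, a ratio of 0.514 (0.334 to 0.780). Ndufaf2 gave 0.639 (0.441 to 0.920) there. Ndufaf4 went the other way, with 116 UMIs in autonomy and 72 in turnover. Its ratio of 1.48 (1.09 to 2.01) was the highest of the 80 members counted in that stage.

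Complex II, the succinate dehydrogenase of the citric acid cycle, had all 4 of its genes below 1, with a summed ratio of 0.793 over all barcodes (0.773 to 0.814). Sdhc, a membrane anchor on chr1:171129157-171150640, had 45.3 CPM in autonomy and 66.9 CPM in turnover over all barcodes, and 34.7 against 54.4 CPM among small resting barcodes, where its ratio was 0.638 (0.530 to 0.767). The iron-sulfur subunit Sdhb had 257 CPM in autonomy and 337 CPM in turnover, a ratio of 0.761, and the other anchor, Sdhd, gave 0.728. The flavoprotein Sdha was close to 1, with 153 and 155 CPM and a ratio of 0.984 (0.933 to 1.04). The catalytic subunit thus stood apart from the anchors and from Sdhb.

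Complex III was close to complex II, with a summed ratio of 0.791 over all barcodes (0.781 to 0.801), 0.804 among small resting and 0.886 among cycling barcodes, against 0.829 and 0.869 in complex II within these stages. Uqcrh, the hinge protein beside cytochrome c1 (chr4:116066965-116075070), had 654 CPM in autonomy and 1063 CPM in turnover among small resting barcodes, a ratio of 0.616 (0.591 to 0.642). Among post-selection-like barcodes it had 535 and 923 CPM, a ratio of 0.579 (0.535 to 0.627), and among cycling barcodes 553 and 695 CPM, a ratio of 0.796. Uqcrb, the ubiquinone-binding protein, gave 0.670 over all barcodes (0.647 to 0.694), with 303 CPM in autonomy and 453 CPM in turnover, and Uqcr10 gave 0.760. The core protein Uqcrc1 was higher in autonomy, with 242 and 221 CPM over all barcodes, a ratio of 1.09 (1.05 to 1.14), and 279 against 223 CPM among cycling barcodes, with an interval of the ratio from 1.17 to 1.34. With TMM factors its ratio was 0.892 over all and 1.10 among cycling barcodes, so its direction depended on the scaling over all barcodes.

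Complex IV had a summed ratio of 0.823 over all barcodes (0.817 to 0.829), 0.884 among small resting and 0.921 among cycling barcodes. Its most detected members were Cox4i1, with 887 CPM in autonomy and 1069 CPM in turnover (ratio 0.830), and Cox7c, with 833 and 1039 CPM (0.802). Ndufa4, long assigned to complex I and found in complex IV, had 553 CPM in autonomy and 749 CPM in turnover (0.739). Cox6a1 and Cox8a lay on the other side among small resting barcodes, at 1.13 each (1.02 each with TMM factors). Cox7a2l gave 0.725 (0.681 to 0.773) there.

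Complex V had a summed ratio of 0.818 over all barcodes (0.813 to 0.824), 0.896 among small resting and 0.944 among cycling barcodes. Its ring genes gave 0.653 for Atp5g2 (0.637 to 0.670), with 555 CPM in autonomy and 850 CPM in turnover, 0.707 for Atp5g1 and 0.783 for Atp5g3. Within stages Atp5g2 gave 0.755 among small resting and 0.911 among cycling barcodes. Atp5g1 gave 0.886 and 0.843 in these stages, and Atp5g3 gave 0.913 and 0.958. Among post-selection-like barcodes Atp5g2 gave 0.894, Atp5g1 1.12 and Atp5g3 0.965, and the intervals of Atp5g1 and Atp5g3 include 1. Atp5a1, Atp5b and Atp5d were nearer to 1 or above it, while Atp5c1 and Atp5e, the gamma and epsilon subunits of the central stalk, were at 0.784 and 0.847 over all barcodes and at 0.868 and 0.936 among cycling barcodes. Atp5b, the catalytic beta subunit, had 935 CPM in autonomy and 980 CPM in turnover over all barcodes (0.954), but 791 against 724 CPM among small resting (1.09) and 1278 against 1155 CPM among cycling barcodes (1.11). Atp5d, the delta subunit of the rotor, gave 1.10 over all, 1.18 among small resting and 1.18 among cycling barcodes, and Atp5a1, the alpha subunit, gave 1.01, 1.11 and 1.10. With TMM factors Atp5b was 0.986 among small resting and 0.970 among cycling barcodes, Atp5d 1.07 and 1.03, and Atp5a1 1.0 and 0.964, so the direction of Atp5b in both stages, and of Atp5a1 among cycling barcodes, depended on the scaling. Atp5s, now named Dmac2l, was detected at 9.47 CPM in both libraries over all barcodes. Among small resting barcodes it had 11.1 CPM in autonomy and 8.34 CPM in turnover, from 64 and 44 UMIs. Among cycling barcodes its ratio was 1.26, with an interval that includes 1 (0.880 to 1.78). The row Atp5o.1 was matched to no RefSeq gene by symbol, and its ratio was 0.698.

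Tissue-restricted isoforms were rare in these cells and differed most. Cox6b2 (chr7:4751792-4753094), the form of subunit 6b known from testis, had 119 UMIs in autonomy and 386 in turnover, 7.32 and 19.2 CPM, a ratio of 0.38 (0.307 to 0.468). It was lower in autonomy among small resting barcodes, with 10.6 against 21.0 CPM (0.503, 0.362 to 0.694), and among cycling barcodes, with 15 UMIs against 161 (0.259, 0.141 to 0.439). Its highest level was in the Il2ra-high cluster, with 4 UMIs in 9 barcodes of autonomy (52.0 CPM, exact Poisson interval 14.2 to 133) and 91 UMIs in 127 barcodes of turnover (90.8 CPM, 73.1 to 111). The ubiquitous form Cox6b1 had 551 CPM in autonomy and 691 CPM in turnover (0.798). Its stage ratios were close to 1, at 1.10 and 1.06.

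Cox6a2, Cox4i2 and Cox7a1, forms known from muscle and lung, were below the count minimum of 200 UMIs. Cox6a2 had 85 UMIs in autonomy and 27 in turnover, of which 21 in autonomy came from 2 barcodes of the cluster with macrophage transcripts. Among cycling barcodes it had 47 UMIs in autonomy and 16 in turnover, a ratio of 8.15 (4.54 to 15.4). Cox4i2 had 17 UMIs in autonomy and 4 in turnover among cycling barcodes, a ratio of 11.8 (3.85 to 48.2). Cox7a1 went the other way, with 8 UMIs in autonomy and 69 in turnover among cycling barcodes, a ratio of 0.322 (0.134 to 0.670), and 13 in each library among small resting barcodes. Macrophage markers, all 7 of 7 detected in each library, summed to 122 CPM in autonomy and 11.4 CPM in turnover over all barcodes and to 6.4 and 2.82 CPM among cycling barcodes. Dendritic cell markers summed to 118 CPM in autonomy and 20.9 CPM in turnover over all barcodes, and to 6.4 and 11.3 CPM among cycling barcodes. Innate or NKT markers summed to 80.9 CPM in autonomy and 17.8 CPM in turnover over all barcodes, and to 6.4 and 5.04 CPM among cycling barcodes. B cell markers, of which 2 of 4 were detected in autonomy and 1 of 4 in turnover, summed to 34.6 and 37.8 CPM over all barcodes. Among small resting barcodes they summed to 43.1 and 78.1 CPM, so they need not mark B cells here. The part of other cell types in the isoform counts was not tested. Without the macrophage-transcript and mature clusters the member ratio over all barcodes was 0.830. All 3 erythroid markers were at 0 in both libraries.

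**Figure D4:**
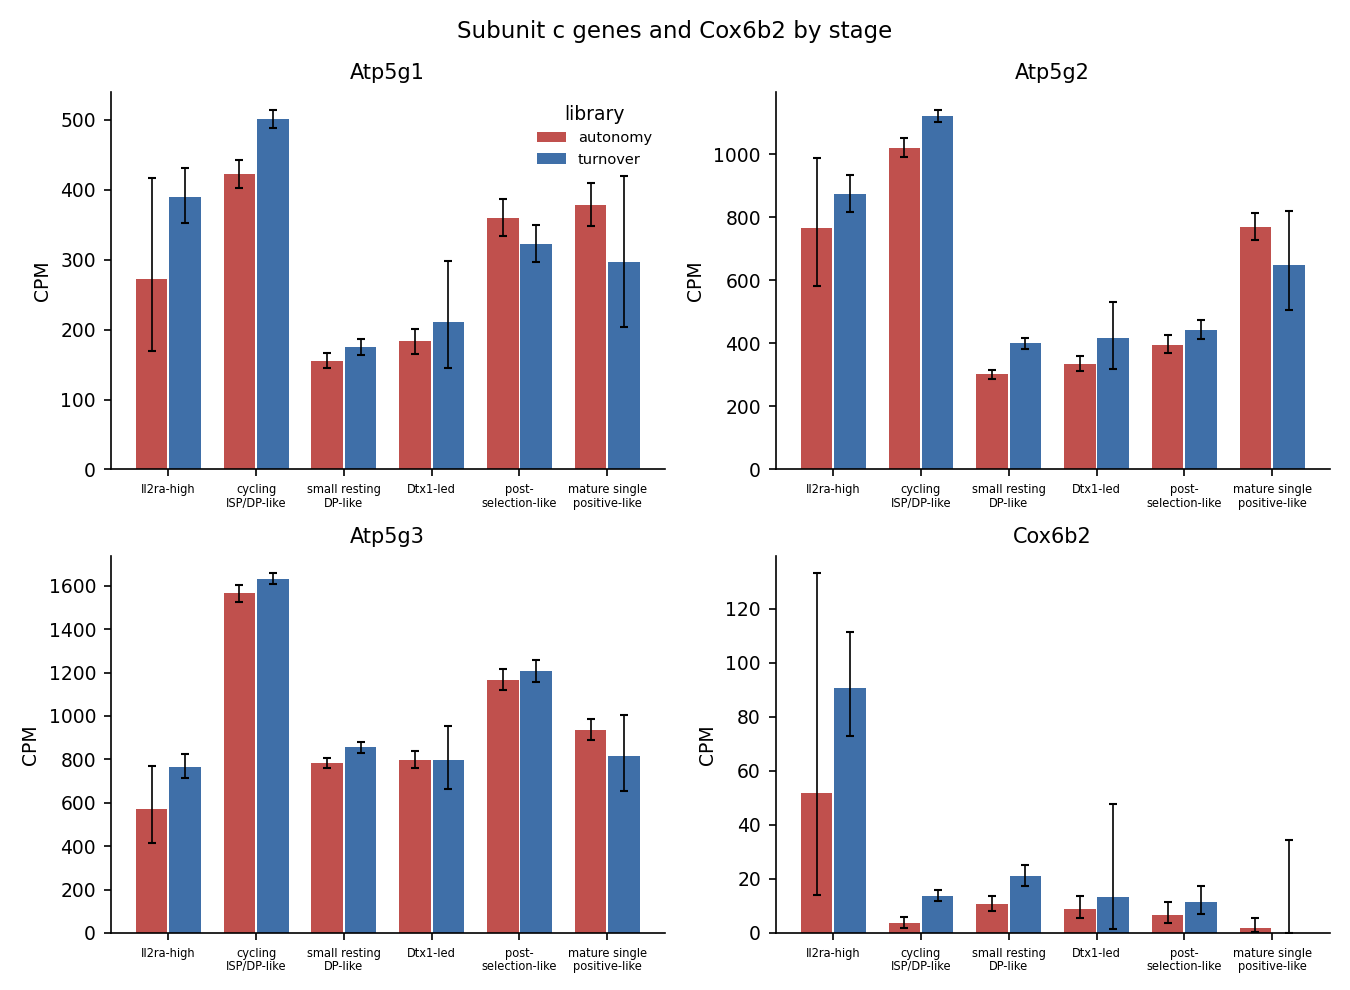
Bars give CPM (from 0) of the 3 subunit c genes and of Cox6b2 in 6 cell groups, autonomy left and turnover right, with exact Poisson 95% intervals for counting error. The subunit c genes are highest in cycling ISP/DP-like barcodes, and Cox6b2 is highest in the Il2ra-high cluster, which has 9 autonomy barcodes.

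Other mitochondrial lists had medians on both sides of 1 over all barcodes. The 78 mitochondrial ribosomal protein genes had a median ratio of 0.809 over all barcodes, 0.870 among small resting and 0.95 among cycling barcodes, where the member medians were 0.798, 0.858 and 0.889. In the stage contrast 36 of 78 in autonomy and 26 of 78 in turnover were at least 1.5-fold higher in cycling barcodes, against 18.3% and 18.4% of all genes, with medians of 1.43 and 1.30. Mrpl42 was 0.619 and Mrpl53 1.72 in autonomy over turnover. The 13 citric acid cycle genes had a median of 0.865 over all barcodes and stage medians of 1.15 and 1.10, with 1 gene at least 1.5-fold lower in autonomy, fumarase Fh1 (0.612), and 1 higher, Dlst (1.5), against 6.5% and 31.3% of all genes. The 13 mitochondrially encoded mRNAs had a median of 0.947 over all barcodes, from mt-Nd5 (0.787) to mt-Nd6 (1.20), and none passed 1.5-fold.

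Assembly factors and electron carriers outside the naming rule had a median of 1.0 over all barcodes, with 3 of 38 genes at least 1.5-fold lower and 2 higher, against 6.5% and 31.3% of all genes. Atpif1, the inhibitor of ATP synthase run in reverse, had 273 CPM in autonomy and 493 CPM in turnover (0.553), and Cox11, a copper chaperone of complex IV, had 37.5 and 18.2 CPM (2.05). The pyruvate entry list had a median of 1.08, from Pdk2, which inhibits pyruvate dehydrogenase (2.52 CPM in autonomy and 11.8 CPM in turnover, 0.214), to lactate dehydrogenase Ldhb (944 and 551 CPM, 1.71). Carriers and oxidant defence genes had a median of 0.960, with Sod1 at 0.620 and Prdx3 at 0.683. Mitochondrial transcription factors and their regulators had a median of 1.26, close to the median gene at 1.22, with 3 of 12 higher by at least 1.5-fold against 31.3% of all genes, and 1 lower, Tfb1m (0.521), against 6.5%. Among the 3 were Esrra, at 11.1 CPM in autonomy and 3.24 CPM in turnover (3.43, 2.57 to 4.63), and Yy1, at 82.6 and 51.9 CPM (1.59). Nrf1, at 71.7 and 53.7 CPM, gave 1.34. Across stages this list had a median of 0.794 in autonomy and 0.798 in turnover, where the median gene was at 0.682 and 0.676. Of 11 genes with 100 or more UMIs, 2 in autonomy and 3 in turnover were at least 1.5-fold higher in cycling barcodes, against 18.3% and 18.4% of all genes. At least 1.5-fold lower were 3 and 2, against 48.7% and 49.2%. Yy1 gave 0.721 in autonomy and 0.755 in turnover and Gabpa, a subunit of GABP, 0.662 and 0.676. With TMM factors Yy1 was at 1.01 and 1.12 and Gabpa at 0.925 and 1.01.

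Promoters of the members were looked at for the letters of sites bound by such regulators. RefSeq windows of GRCm38.p6 from 250 bases before to 50 after a start were at hand for 73 members. Among the members with no entry were Atp5a1, Atp5o.1, Cox4i1, Cox4i2, Cox6a2, Cox6c, Ndufa2, Ndufaf6, Ndufb9, Ndufs1, Sdhc, Uqcrb, Uqcrc2 and Uqcrq. On either strand, the NRF1 site GCATGCGC was in the windows of 12 members (16.4%) and of 3.05% of all 27025 genes with a window. The YY1 site AAGATGGC was in 11 members (15.1%) and 3.19% of all genes, and the ETS core CGGAAG, read by GABP, in 33 members (45.2%) and 18.8% of all genes. The ETS site of greater length, CCGGAAGT, was in 5 members (6.85%) and 4.31% of all genes, the ERR half-site AAGGTCA in 8 (11%) and 5.38%, the E-box CACGTG in 6 (8.22%) and 8.09%, and the GC box GGGCGG in 34 (46.6%) and 38.2%. The 27025 genes were not limited to genes detected in these libraries or to protein-coding ones, so these gaps cannot be read as particular to the members. A match of letters is a description only, not a site shown to be bound.

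The 80 bases before the start are shown for 4 members whose values carry the results above, each 5′ to 3′ on the strand of the gene and outside annotated genes, with matches to the searched letters in capitals. Atp5g2 and Ndufa12 were higher in cycling barcodes, Cox7a2l was lower, and Uqcrh was lower in autonomy among small resting barcodes. The stretches are chr15:102671048-102671127 on the minus strand for Atp5g2, chr10:94198955-94199034 on the plus strand for Ndufa12, chr17:83514334-83514413 on the minus strand for Cox7a2l and chr4:116075071-116075150 on the minus strand for Uqcrh.
Atp5g2: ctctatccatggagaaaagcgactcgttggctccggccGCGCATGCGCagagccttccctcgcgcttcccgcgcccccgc
Ndufa12: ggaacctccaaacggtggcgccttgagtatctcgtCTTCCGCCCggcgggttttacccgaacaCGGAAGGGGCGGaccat
Cox7a2l: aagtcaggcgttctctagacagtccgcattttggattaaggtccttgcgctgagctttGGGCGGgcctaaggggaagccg
Uqcrh: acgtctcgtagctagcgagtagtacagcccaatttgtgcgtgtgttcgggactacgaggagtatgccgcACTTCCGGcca
In Atp5g2 the capitals are 2 overlapping NRF1 sites on opposite strands, and in Ndufa12 an ETS core and a GC box on each strand, overlapping in the left run. In Cox7a2l they are a GC box, and in Uqcrh the ETS site of greater length on the opposite strand, which holds the ETS core.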

How the data were processed

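The authors deposited counts of unique molecules (UMIs) per gene and barcode, and per contig in the V(D)J tables. Per the submitters' processing notes, Cell Ranger 3.0.2, Seurat 3.1.3.9002 and mm10 were used. The cell calling, strand setting and annotation are not given in the sources used here, so rows with near-identical copies, such as Atp5o.1, are uncertain.

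UMIs were summed per library and cell group and divided by the group's total. Ratios carry a conditional exact binomial interval and shares an exact binomial one. A member past 1.5-fold was counted where both libraries together had 200 UMIs (100 within a stage). Clusters came from 2000 variable genes, centred per library and without members, mitochondrial, ribosomal, TCR segment and sex genes, with 30 components, 15 neighbours and Leiden resolution 1. They were named from marker CPM with thresholds set with the data in view, for example 300 CPM of Mki67 and Top2a together for cycling and 500 CPM of Rag1 with 2000 CPM of Cd8a for small resting. Named genes are the most detected and the extreme members of each complex, members past 1.5-fold, isoform sets and the 2 genes of each other list farthest from 1, together with others chosen after their values were seen. Members and lists were chosen with earlier results of these data known. For 1 of the 88 members, which is counted in all totals, no value of its own is reported here. By symbol or synonym 87 of 88 members matched RefSeq. Ratios and intervals were tested on simulated independent Poisson counts only. These hold no clones and no variation among cells or animals, so the test cannot show how well the intervals cover these libraries. The tools were edgeR 4.0.16 in R 4.3.3 for TMM factors only, scanpy 1.11.5 and scikit-learn 1.9.0 for clusters, scipy 1.17.1 for intervals, and pandas 2.3.3, matplotlib 3.10.9 and numpy 2.4.6 in Python 3.11.15.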

Additional observations from a re-analysis of the deposited data

Results flagged for a closer look

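In Ndufaf4, an assembly factor of complex I, the library ratio lay on opposite sides of 1 in the main stages. Scaled by all UMIs, the intervals exclude 1 in each. The gene was picked from the members after its values had been seen. The difference between the stages was not tested, and intervals cover counting error only. Ndufaf4 had 27.8 CPM in autonomy and 21.2 CPM in turnover among small resting DP-like barcodes, a ratio of 1.31 (1.02 to 1.68). Among cycling ISP/DP-like barcodes it had 57.6 CPM in autonomy and 68.5 CPM in turnover, a ratio of 0.840 (0.725 to 0.971). With TMM factors these ratios were 1.18 and 0.736. The TMM multiplier of 0.903 among small resting barcodes puts the lower bound of that interval below 1. Totals without mitochondrial and ribosomal protein genes (multiplier 0.942) do the same, with a ratio of 1.23.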

How the results depend on the processing

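No summed share of all members changed direction under any alternative. With TMM factors, which centre the bulk of genes, the ratio of autonomy over turnover was 0.672 over all, 0.784 among small resting and 0.810 among cycling barcodes, with 47, 9 and 2 members at least 1.5-fold lower (15.3%, 7.87% and 6.43% of all genes), and the stage ratio was 1.96 in both libraries. With mitochondrial and ribosomal protein genes out of the totals these ratios were 0.757, 0.818 and 0.863 (13 members lower over all barcodes, 9.57% of all genes), with stage ratios of 1.55 in autonomy and 1.47 in turnover. Thinned to 1000 UMIs they were 0.860 over all and 0.909 among cycling barcodes (2 members lower over all, 3.75% of all genes, and 1 higher among cycling, 11.9%), with stage ratios of 1.35 and 1.29. As means over barcodes they were 0.855 and 0.911 (3 lower over all, 6.21% of all genes, and 1 higher among cycling, 23.8%), with 1.36 and 1.28. From barcodes with 2000 or more UMIs the ratio was 0.812 over all, with 8 members lower over all (7.63% of all genes) and 5 lower (4.30%) and 1 higher (25.2%) among small resting barcodes, and stage ratios of 1.39 and 1.30. Weighting the stages of autonomy by their UMIs in turnover gave 0.912, with 1 member lower (2.71% of all genes). Y-linked barcodes without Xist gave 0.817 over all barcodes, with 2 members lower among cycling ones (6.54% of all genes). Without TCR beta chains of 20 or more barcodes the ratio was 0.820 over all and 0.918 among cycling barcodes, with 2 lower there (3.1% of all genes). Without the macrophage-transcript and mature clusters it was 0.830 over all. Resolution 2 gave 0.913 among cycling barcodes and a stage ratio of 1.37 in autonomy. Stages taken from marker counts gave 0.875 among small resting and 0.918 among cycling barcodes and 1.38 in autonomy. With Dtx1-led clusters counted as small resting, the median member there was at 0.852 and the median gene at 1.11. In the main setting they were at 0.858 and 1.10. Leaving out the 5 members with most UMIs, an alternative added after seeing the data, gave 0.820, 0.883 and 0.914.

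Counts depended on the fold and the minimum. With ratios of 0.8 or less, or its inverse or more, counted, 44, 26 and 5 members were lower over all, small resting and cycling barcodes (14.2%, 13.4% and 9.31% of all genes), with 2 higher among small resting (36.6% of all genes) and 1 among cycling ones (37.0%), and at 2-fold 1 was lower over all (2.30%) and 0 among small resting barcodes (0.849%). With 5 times the minimum 3, 1 and 0 members were lower (5.88%, 2.84% and 1.31% of all genes), and with no minimum 2 were higher in each cell group (34.5%, 25.8% and 26.7%) and 2 lower among cycling barcodes (7.68%). Of 1789 values under alternatives for single results, 54 lay on the other side of 1 from the value given, all from results between 0.885 and 1.11. Cox6b2 among cycling barcodes fell to 0.149 at resolution 2, and Ndufaf8 among small resting barcodes to 0.543 in Y-linked barcodes. The cause of these shifts was not tested.

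With 1 library a condition, library and condition cannot be told apart. No paired analysis was possible because each condition had 1 gene expression library. Depth limits the rarest members, such as Cox4i2 among cycling barcodes, whose ratio has an interval from 3.85 to 48.2.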
